A study of Mus musculus with 22 samples.

Results

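Immediate early genes are the first genes that a neuron transcribes after strong synaptic input, before any new protein has to be made, and their short-lived mRNAs are widely used to mark recently active cells. Most encode transcription factors, which act on a later set of target genes, and a few encode proteins that act at the synapse. In resting neurons their promoters are held ready by factors such as CREB and SRF, which kinases switch on when calcium enters the cell. The 10 immediate early genes described here, Fos, Fosb, Junb, Egr1, Egr3, Egr4, Arc, Npas4, Nr4a1 and Ier2, were taken by name; the rule uses no value, but it was written with earlier results of these data known. All 10 were found among the 23037 genes of the count table that matched a mouse gene symbol.

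The counts came from 3′ RNA-seq of 3 brain regions, the hippocampus, the cortex and the cerebellum, from wild-type mice (WT) and circTulp4-deficient mice (CD, called KO in part of the labels), in which the splice acceptor site that closes the circular RNA circTulp4 was mutated with CRISPR-Cas9. The CD line goes back to 1 mosaic founder male on a C57BL/6 background. By RT-qPCR of brain, the study describes circTulp4 in CD mice as reduced rather than absent. It does not say whether the mice sequenced here were among those measured. No treatment is given in the labels, and age, sex and what the mice did before dissection are not given in the sources used here. The 22 libraries came from 4 WT and 4 CD mice: 3 WT and 4 CD hippocampi, 4 and 4 cortices, and 4 WT and 3 CD cerebella. The series' own description counts 1 library fewer per group without naming the omitted ones, and all 22 entered the fits. In whole tissue, fewer cells of a type and less RNA per cell cannot be told apart.

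Libraries held 2760846 to 8858937 counts. The region markers went with the labels: the summed level of 5 cerebellar markers, for example, was 5349 to 6046 cpm (counts scaled to library size) in cerebellum and at most 74.5 cpm elsewhere. The edit was checked with the counts by which the transcript Tulp4-201 exceeded Tulp4-209, a transcript that per the study holds the complete circTulp4 sequence. This excess was 2.71 to 3.69 cpm in the WT hippocampi and 0.423 to 0.573 cpm in 3 CD hippocampi. It was 3.97 cpm, or 16 counts, in the hippocampus library labelled CD m118, which on this measure stood above the WT hippocampi. The excess counts linear transcripts and not circTulp4 or the mutated site, and whether the label is wrong was not tested. The cortex and cerebellum of the same mouse, at 0.896 and 1.55 cpm, lay within the other CD libraries of their region (0.141 to 1.29 and 0.599 to 2.61 cpm) and below the WT libraries (1.45 to 6.02 and 3.12 to 13.6 cpm). Hippocampal comparisons of genotypes are also given without that library. These are excesses of 3 to 24 counts in the hippocampi, 1 to 31 in the cortices and 3 to 72 in the cerebella. Choroid plexus markers (5 of 5 found) summed to between 132 and 8299 cpm in the hippocampi, highest in WT m244, and blood markers (3 of 3 found) were highest in mouse m118 in all 3 regions, with 8839, 10135 and 9248 cpm in hippocampus, cortex and cerebellum. Among the other hippocampi the highest blood sum was 5919 cpm, in WT m240. Whether this bears on the label of CD m118 was not tested. The part of choroid plexus or blood RNA in the values below was not tested either.

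Promoter windows from 250 bases before to 50 after the start site were matched in RefSeq (GRCm38.p6) for 6 of the 10 genes, and Egr1, Egr3, Arc and Ier2 had no entry. Each of the 6 windows held the core of the cAMP response element, CGTCA or TGACG on either strand, the site of CREB, which 20.8% of all 32851 promoters in the table also hold. The full element TGACGTCA was in 0 of the 6 and in 1.79% of all promoters. The CArG box of SRF was in 0 of the 6 and 1.63% of all, the AP-1 site (TGACTCA or TGAGTCA) in 0 of the 6 and 5.2% of all, and the EGR site in 0 of the 6 and 0.612% of all. A TATA box with the exact letters TATAAA or their complement was in 2 of the 6, Fos and Junb, and in 13.6% of all. The variant TATATAA, which the Npas4 and Egr4 windows hold, was not counted. The match in Fos begins at -33 from the start site, and that in Junb at 1, on the start site itself. A match is a string of letters and not a measured site. Bases outside the windows and variants of these letters were not searched, so a count of 0 does not show that a gene lacks the site. The windows of 4 genes are shown, 5′ to 3′, with the core element and the TATA box in capitals: Fos at chr12:85473640-85473939 (plus strand) and Fosb at chr7:19309996-19310295 (minus strand), related genes ordered in opposite ways between cerebellum and hippocampus, and Npas4 at chr19:4989922-4990221 (minus strand) and Nr4a1 at chr15:101266596-101266895 (plus strand), which had the highest CD over WT ratios in the hippocampus.
Fos: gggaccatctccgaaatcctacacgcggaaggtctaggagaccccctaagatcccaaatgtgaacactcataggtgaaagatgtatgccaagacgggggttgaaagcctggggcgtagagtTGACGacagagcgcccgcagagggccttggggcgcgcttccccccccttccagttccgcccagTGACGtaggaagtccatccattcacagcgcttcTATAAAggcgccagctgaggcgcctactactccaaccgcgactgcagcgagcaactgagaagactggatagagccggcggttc
Fosb: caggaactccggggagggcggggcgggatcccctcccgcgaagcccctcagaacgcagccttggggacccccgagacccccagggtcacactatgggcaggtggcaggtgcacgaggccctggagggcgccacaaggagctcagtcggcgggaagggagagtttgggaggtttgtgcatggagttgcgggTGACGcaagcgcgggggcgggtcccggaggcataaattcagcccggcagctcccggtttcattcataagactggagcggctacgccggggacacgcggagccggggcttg
Npas4: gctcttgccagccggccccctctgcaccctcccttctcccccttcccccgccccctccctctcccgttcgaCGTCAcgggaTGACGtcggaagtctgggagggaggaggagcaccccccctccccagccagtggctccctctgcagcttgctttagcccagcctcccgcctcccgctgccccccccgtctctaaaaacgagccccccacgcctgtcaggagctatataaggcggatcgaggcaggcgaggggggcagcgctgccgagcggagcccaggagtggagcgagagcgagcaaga
Nr4a1: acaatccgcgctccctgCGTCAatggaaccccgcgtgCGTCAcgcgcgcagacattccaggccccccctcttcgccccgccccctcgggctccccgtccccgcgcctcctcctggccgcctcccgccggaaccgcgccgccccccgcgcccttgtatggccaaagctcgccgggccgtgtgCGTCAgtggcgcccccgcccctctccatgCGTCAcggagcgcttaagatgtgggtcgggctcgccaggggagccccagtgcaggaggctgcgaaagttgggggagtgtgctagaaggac

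In the Fos window the core begins at -129 and -66 from the start site, and in the Fosb window at -60. In Npas4 it begins at -179 and -169. Nr4a1 holds 4 copies, which begin at -233, -213, -69 and -40.

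All 10 genes differed between regions in at least 1 comparison, and no difference between genotypes passed the test. Levels are given in cpm with TMM scaling (edgeR's trimmed mean of M-values over the 22 libraries), and since 3′ counting does not divide by length they are compared between samples and not between genes. The mean was highest in cortex for 9 of the 10 genes and in cerebellum for 1, Ier2. Regions were compared with edgeR's quasi-likelihood test over 11137 genes, and a gene was called past the thresholds at an FDR (Benjamini-Hochberg) below 0.01 with a fold change above 2 or below 0.5.

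**Figure D1:**
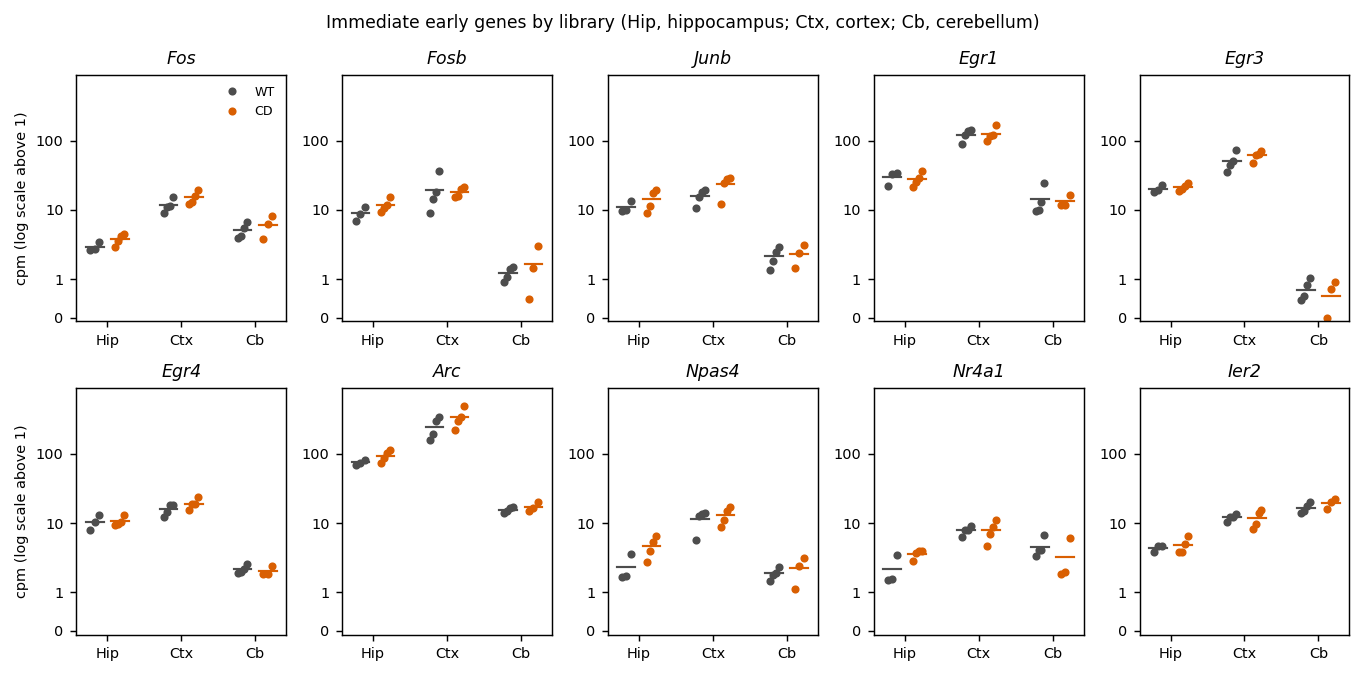
Level of each gene in each of the 22 libraries, in cpm (vertical axis, logarithmic above 1 cpm and linear below), by region (Hip, hippocampus; Ctx, cortex; Cb, cerebellum); each point is a library, grey for WT and orange for CD, and each line is a group mean. Cortex stands highest in 9 panels, Ier2 is highest in cerebellum, and grey and orange points overlap in every gene and region.

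Between cortex and hippocampus all 10 genes were higher in cortex and 7 passed the thresholds, against 4.38% of all genes tested that passed in this direction. Fos, which encodes the partner of Jun proteins in the AP-1 factor, was at 2.61, 2.73 and 3.46 cpm in the WT hippocampi and at 2.89, 3.53, 4.25 and 4.52 cpm in the CD hippocampi. In the cortex it was at 9.14, 11.1, 11.5 and 15.5 cpm in WT and at 12.1, 13.1, 16.1 and 19.5 cpm in CD. Every cortex lay above every hippocampus, and the fold was 4.06 (log2 2.02, SE 0.19, FDR = 3.71e-09, edgeR). Egr1, a zinc finger factor of the same early wave, had the largest fold of the 10, 4.31, with 28.7 ± 6.01 cpm in hippocampus (SD, n = 7) and 124 ± 24.7 cpm in cortex (n = 8).

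Arc, which encodes a protein of the postsynapse that takes part in the removal of AMPA receptors, was at 70.2, 73.4 and 82.5 cpm in WT hippocampus and at 73.3, 88.3, 102 and 113 cpm in CD hippocampus. In cortex it ranged from 161 to 343 cpm in WT and from 224 to 495 cpm in CD, and the regions did not overlap (fold 3.45, FDR = 1.7e-09). Npas4, a factor that responds to calcium and is known for its role at inhibitory synapses, was 3.64-fold higher in cortex (FDR = 1.05e-06), but its regions overlapped, with 1.66 to 6.59 cpm in hippocampus and 5.64 to 17.1 cpm in cortex. The remaining genes past the thresholds were the nuclear receptor gene Nr4a1 at 2.80-fold, Egr3 at 2.71-fold and Ier2 at 2.63-fold.

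Fosb, Junb and Egr4 were not past the thresholds between these regions, and each overlapped. Fosb was 1.83-fold higher in cortex (FDR = 0.00399) and Egr4 1.65-fold (FDR = 0.000114), both under the fold limit. Junb, whose product pairs with Fos proteins, was 1.53-fold higher with an FDR of 0.0164. The values of cortex and hippocampus did not overlap for 6 members, where 14% of all genes tested did not.

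Between cerebellum and hippocampus 6 of the 10 genes were lower in cerebellum past the thresholds and 1 was higher, against 13% of all genes tested lower and 9.76% higher. The lowest level was that of Egr3, at 0.453 to 1.04 cpm in WT cerebella and at 0, 0.744 and 0.916 cpm in CD cerebella, against 18.1 to 24.6 cpm in hippocampus. The 0 is from CD m118, where a count of 0 in 4508897 allows up to 0.665 cpm, and the cerebellar libraries held 0 to 6 counts of Egr3. The fitted fold was 0.0325 (log2 fold change -4.94, SE 0.25, FDR = 7.89e-15). Fosb (0.134-fold), Junb (0.182-fold), Arc (0.195-fold) and Egr4 (0.198-fold) followed, each with no overlap between the regions.

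Egr1 was at 0.481 of its hippocampal level (log2 fold change -1.06), at the edge of the fold limit and with overlapping regions. Leaving out CD hippocampus m118, WT cerebellum m162 or WT cerebellum m240 brought it to -0.9996, -0.98 and -0.99, under the fold limit each time. Ier2, an early gene whose product is a nuclear protein, went the other way. It was at 3.80 to 4.63 cpm in WT and 3.81 to 6.46 cpm in CD hippocampus, and at 13.8 to 20.3 cpm in WT and 16.1 to 21.997 cpm in CD cerebellum, with no overlap (fold 3.93, FDR = 1.03e-10).

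Fos, Nr4a1 and Npas4 did not pass between cerebellum and hippocampus. Fos was 1.67-fold higher in cerebellum (FDR = 0.00297), so that Fos and Fosb were ordered in opposite ways. Nr4a1 was 1.38-fold higher (FDR = 0.153) and Npas4 was at 0.609 of its hippocampal level (FDR = 0.0414), and in each of the 3 the regions overlapped. With the curated transcript of Npas4 in place of the predicted one, an alternative chosen after seeing the data, its log2 fold change was -1.04 (FDR = 0.00839) and passed. In all, the values of cerebellum and hippocampus did not overlap for 6 members, against 35.9% of all genes tested.

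Against the cortex, 9 of the 10 genes were lower in cerebellum past the thresholds, against 12.9% of all genes tested. Egr3 had the lowest fold, 0.0120 (log2 fold change -6.38, SE 0.24), and Arc followed at 0.0566. Fosb was at 0.0733 of its cortical level, Egr1 at 0.111, Junb at 0.118, Egr4 at 0.1202, Npas4 at 0.167 and Fos at 0.410. Ier2 was 1.49-fold higher in cerebellum (FDR = 0.00121), under the fold limit and with overlap. Nr4a1 only just passed, at a log2 fold change of -1.02, and with the mouse as a replicate block it was at -0.96 and did not pass, which brought the count to 8. It also fell short without CD cortex m118 or m190, WT cortex m244, CD cerebellum m118 or m242, or WT cerebellum m164, m240 or m244, where it ranged from -0.86 to -0.99. The values of cortex and cerebellum did not overlap for 8 members, against 32.9% of all genes tested.

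**Figure D2:**
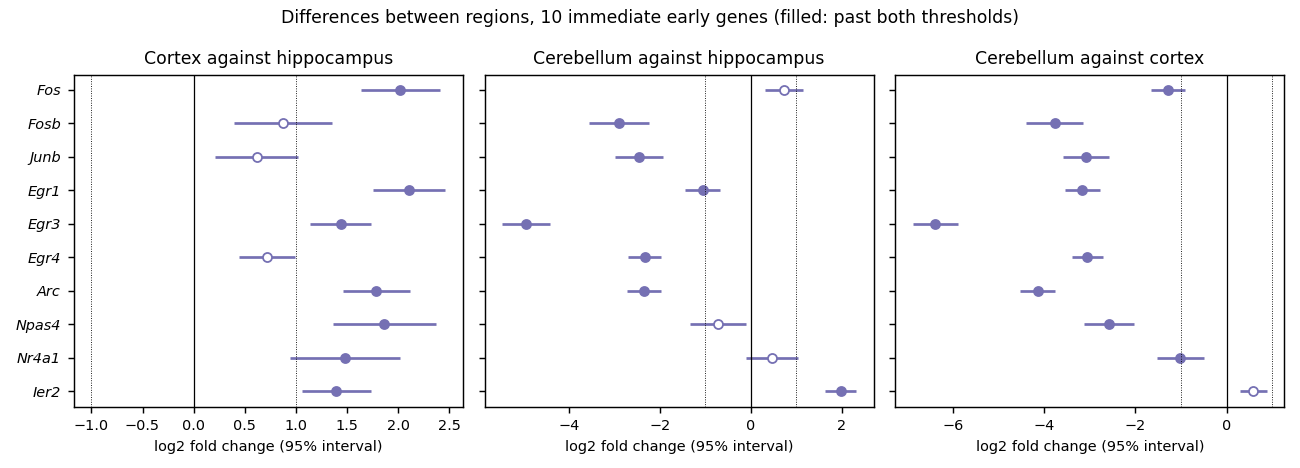
Log2 fold change of each gene between regions (horizontal axis) with its 95% interval, from edgeR's fit over the 22 libraries; filled points passed both thresholds and dotted lines mark a fold of 2 in either direction. All 10 genes lie above 0 in cortex against hippocampus, and Egr3 lies lowest in both comparisons of the cerebellum, at -4.94 and -6.38.

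Nr4a1 needs a caution. The table lists 6 transcripts of it, and the row used, a predicted model, holds 641 counts over the 22 libraries where the curated transcript holds 283. That curated transcript did not reach the filter of 5 cpm in at least 2 libraries, and with all distinct transcripts summed the difference between cerebellum and hippocampus was -0.02 in log2 instead of 0.47.

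The study used its libraries to test whether circTulp4 acts as a decoy for miRNAs, through changed levels of the mRNAs they target. From fewer libraries, it reported a few transcripts past the same limits in hippocampus and cortex. With all 22 libraries, no difference between CD and WT passed the test in any region for the 10 immediate early genes. By edgeR's quasi-likelihood test 0 of the 7 members tested passed in hippocampus, 0 of 10 in cortex and 0 of 5 in cerebellum, where 0%, 0% and 0% of all 9964, 9927 and 10141 genes tested passed. The DESeq2 Wald test also passed 0 members in each region. The untested members fell under the filter within the region. At an unadjusted p below 0.05 there were 2 members in hippocampus, Npas4 and Arc, 0 in cortex and 0 in cerebellum, against 4.22%, 3.3% and 4.55% of all genes. The log2 fold change was above 0 for 5 of 7, 8 of 10 and 3 of 5 members, against 48.7%, 48.6% and 49.5% of all genes. Without CD m118, 0 of 7 members passed in hippocampus (0% of 9861 genes), 1 had an unadjusted p below 0.05, Npas4 (4.42% of all), and 5 of 7 were above 0 (49.5% of all). Npas4 passed the hippocampal filter only through CD m138 and CD m190, at 6.53 and 5.08 cpm without TMM scaling. The WT hippocampi, at 1.58, 1.68 and 3.55 cpm, were all under it. Npas4 was thus tested there because it was high in CD, and the counts that include it are no sign of a difference. With the filter over all 22 libraries its log2 fold change was 1.06 (FDR = 0.998, edgeR).

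Npas4 had the largest difference. In hippocampus it was at 1.66, 1.71 and 3.63 cpm in WT and at 2.77, 3.95, 5.28 and 6.59 cpm in CD. The 2 lowest values are WT m240 and WT m244, and the third WT mouse, m162, lies between CD mice. The log2 fold change was 1.06 (95% interval 0.20 to 1.92, FDR = 0.997, edgeR), and without CD m118 it was 1.22 (FDR = 0.998), and the genotypes then did not overlap, as for 9.18% of all genes tested and 1 of the 10 members. These values rest on 10 to 57 counts per library. Leaving out each library in turn gave 0.85 (without WT m240) to 1.504 (without WT m162), and without CD m138 or CD m190, or with the curated transcript, the gene fell under the filter.

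Nr4a1 had the same shape in hippocampus: 1.54, 1.54 and 3.46 cpm in WT m240, m244 and m162, and 2.82, 3.77, 3.93 and 3.96 cpm in CD. It was under the filter there. With the filter set over all 22 libraries its log2 fold change was 0.76 (95% interval -0.03 to 1.55, FDR = 0.998, edgeR), and 0.75 without CD m118 (-0.11 to 1.61). On the same filter Fos was at 0.36 (-0.27 to 0.999) and 0.28 without CD m118, and Ier2 at 0.13 (-0.47 to 0.72) and 0.10. In cerebellum Nr4a1 leaned the other way, with 3.37 to 6.64 cpm in WT and 1.83, 1.98 and 6.05 cpm in CD, and a log2 fold change of -0.50 (SE 0.42, FDR = 0.981).

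Arc in hippocampus was at 75.3 ± 6.37 cpm in WT (SD, n = 3) and 94.2 ± 17.3 cpm in CD (n = 4), with CD m242 among the WT values (log2 fold change 0.32, 95% interval 0.0028 to 0.64, FDR = 0.997, edgeR). Without CD m118 the difference was 0.29 (FDR = 0.998, edgeR), no longer under 0.05 before adjustment. In cortex Arc was at 248 ± 85.4 cpm in WT and 340 ± 115 cpm in CD (n = 4 each), a log2 fold change of 0.44 (SE 0.24, FDR = 0.9998). The means differed by about as much as 1 SD within a genotype. In cerebellum the genotypes were at 15.7 ± 1.28 and 17.3 ± 2.62 cpm.

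Among the AP-1 genes Junb showed the largest difference in cortex, with 10.6, 15.5, 17.8 and 19.2 cpm in WT and 12.1, 24.4, 28.3 and 28.6 cpm in CD. Of the CD mice, m242 lay among the WT values, and the log2 fold change was 0.54 (95% interval -0.0056 to 1.09, FDR = 0.9998). In hippocampus Junb was 0.38 higher in log2 (95% interval -0.20 to 0.96), and 0.23 higher without CD m118. Fosb was 0.43 higher in hippocampus (95% interval -0.066 to 0.93) and 0.44 higher without CD m118. In cortex its difference was -0.14 and turned to 0.42 without WT cortex m162, whose 36.1 cpm stood far above the 8.91, 14.3 and 17.8 cpm of the other WT cortices.

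The Egr factors and the rest showed smaller differences. In hippocampus the log2 fold changes were -0.09 for Egr1, 0.07 for Egr3 and -0.0039 for Egr4, and without CD m118 they were -0.22, 0.01 and -0.09. In cortex they were 0.03, 0.27 and 0.26. Fos was at 0.33 in cortex (95% interval -0.12 to 0.78) and 0.23 in cerebellum (-0.43 to 0.89). Npas4 and Nr4a1 were at 0.17 and 0.0035 in cortex. In cerebellum, Egr1 was at -0.09, and with the filter over the 22 libraries Fosb, Junb, Egr3, Egr4 and Npas4 were at 0.35, 0.16, -0.28, -0.09 and 0.18. Ier2 was at -0.03 in cortex (-0.49 to 0.44) and 0.21 in cerebellum (-0.17 to 0.58).

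The exact permutation test over libraries, two-sided, was also run for each gene alone, but these numbers of mice cannot bring a gene past an adjusted threshold over 30 tests. In the 30 tests, 10 genes in 3 regions, the smallest p was 0.0857, for Nr4a1 in hippocampus, where 7 libraries allow 0.0286 at the least, and the smallest p adjusted over the 30 tests (Benjamini-Hochberg) was 0.643. Without CD m118 the smallest exact p was 0.1, for Npas4, which is the least that 6 libraries allow, and it was 0.2 for Nr4a1. With all libraries, CD and WT values overlapped for 10 of 10 members in each region, where 5.43%, 2.53% and 5.33% of all genes tested in hippocampus, cortex and cerebellum did not overlap.

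**Figure D3:**
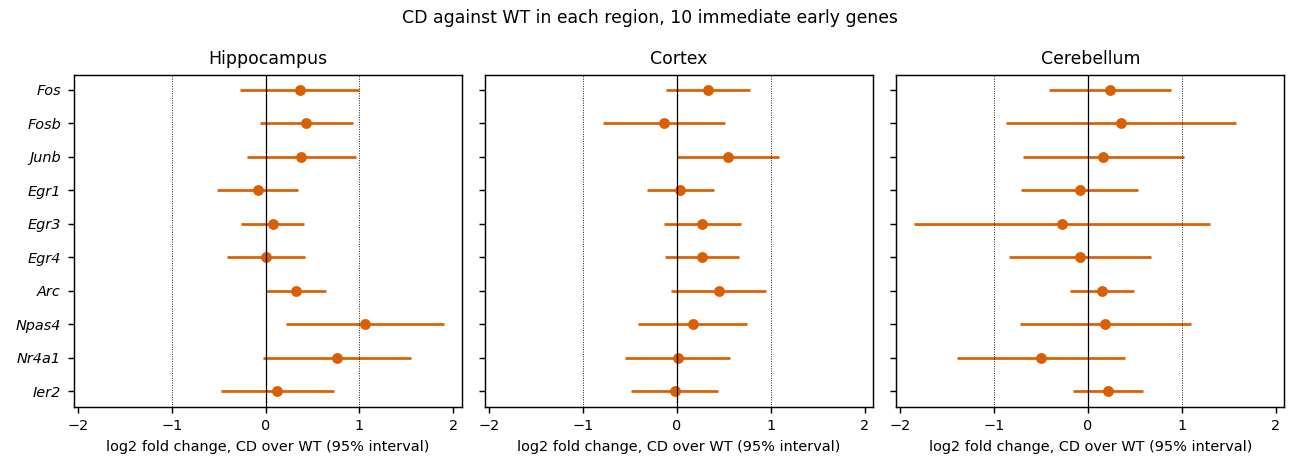
Log2 fold change of CD over WT for each gene in each region (horizontal axis) with its 95% interval, from edgeR fits with the filter set over all 22 libraries so that all 10 genes are shown; dotted lines mark a fold of 2. The intervals of Npas4 and Arc in hippocampus and Junb in cortex lie above 0, and the widest are those of Egr3 and Fosb in cerebellum.

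Over the 3 regions together, with the mouse as a random block in limma-voom, 0 of the 10 members passed the thresholds (0% of all 11137 genes) and 0 had an unadjusted p below 0.05 (3.58% of all). The largest log2 fold change was that of Npas4, 0.45 (SE 0.28), and that of Arc was 0.29 (95% interval -0.028 to 0.61). The other log2 fold changes were 0.33 for Junb, 0.24 for Fos, 0.13 for Fosb, 0.06 for Ier2, 0.04 for Egr4, 0.02 for Nr4a1, -0.04 for Egr1 and -0.13 for Egr3. The limits of the 10 intervals ran from -0.90 for Egr3 to 1.02 for Npas4. A difference of genotype that differs between regions was tested as an interaction: 0 of the 10 members had an FDR below 0.05 (0% of all genes) and 0 had an unadjusted p below 0.05 (3.91% of all). The smallest FDR was 0.999 (edgeR).

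In cortex most pairs of these genes were high or low in the same libraries, and in hippocampus this rested in part on CD m118. In cerebellum no such pattern was seen, but several members varied there by little more than counting error gives, or by less. Over the 8 cortices, 42 of the 45 pairs of members had a positive correlation of log2(cpm + 0.5), with a median r of 0.45, where 50% of all gene pairs were positive. In hippocampus 37 of 45 pairs were positive (median 0.27), and in cerebellum 22 of 45 (median -0.02). The pairs share libraries and are not independent, so these are descriptions. In cerebellum the coefficient of variation (SD over mean) was 13.8% for Egr4 and 31.4% for Junb, where counting alone gives 28.2% and 27.1%. Npas4 and Egr3 were also close to counting error. For pairs with these genes, a lack of correlation cannot be told from counting error. Fos, Fosb, Egr1, Nr4a1 and Ier2 varied more than counting gives, for example Nr4a1 by 45.9% against 20.4%. With the genotype means removed the positive pairs numbered 40, 31 and 23 in cortex, hippocampus and cerebellum. Leaving out each library in turn gave 36 to 43 in cortex and 21 to 28 in cerebellum. In hippocampus it gave 27 to 39, the lowest without CD m118, where the median r was 0.11.

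In cortex CD m190 stood highest, above the region mean in 9 of 10 genes and highest of the 8 libraries in 6, with Arc at 495 cpm, Egr1 at 169 cpm and Npas4 at 17.1 cpm. WT m162 and CD m118 were also above the mean in 9 genes each. WT m240 stood lowest, the lowest library for 5 genes, with Arc at 161 cpm and Npas4 at 5.64 cpm. So the high libraries came from both genotypes. The summed level of 5 oligodendrocyte markers was also highest in CD m190, at 2437 cpm against a cortical median of 1629 cpm, and that of 5 neuronal markers ranged only from 4580 to 5564 cpm. Whether these go with the early genes was not tested.

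In hippocampus CD m118 was above the mean in 9 genes, CD m138 in 7 and CD m190 in 6, while WT m240 and WT m244 were lowest for 3 and 4 genes. WT m244 is also the library with the highest choroid plexus sum and CD m118 the one with the lowest. In cerebellum CD m190 was above the mean in 9 genes, and CD m242 and WT m162 in 3 each.

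**Figure D4:**
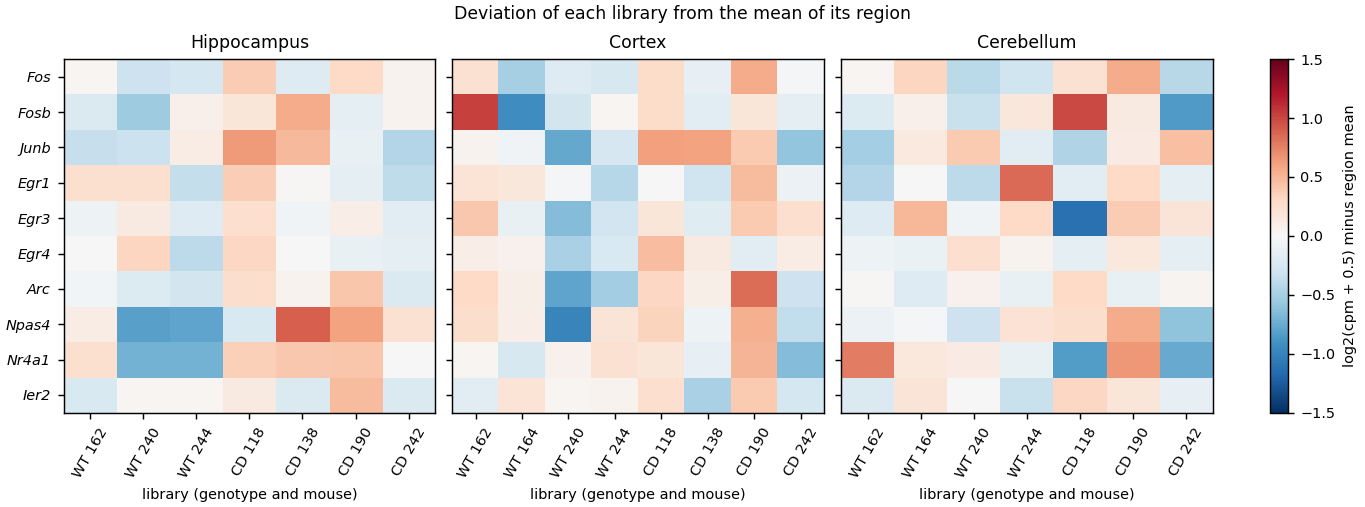
Deviation of each library from the mean of its region in log2(cpm + 0.5) (colour, red above and blue below), with genes as rows and libraries as columns, WT first. In cortex the columns of WT m162, CD m118 and CD m190 are mostly red and that of WT m240 mostly blue, while the cerebellum shows no such columns except CD 190.

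Fos, the gene most used as a mark of activity, was taken as the reference for 27 correlations with the other 9 members in 3 regions. It was positively correlated with 9 of 9 in hippocampus, 9 of 9 in cortex and 5 of 9 in cerebellum. In hippocampus Fos itself varied by 21.8% where counting gives 21.3%, which limits what its correlations there can show. With the genotype means removed the counts of positive correlations were 6, 8 and 6. Without the 2 libraries farthest from the median of Fos they were 7, 9 and 4, with Fosb at -0.62 and Junb at -0.60 in hippocampus. The highest was with Arc in hippocampus, at r = 0.79 (rho = 0.64, exact permutation p = 0.0423 and 0.139, n = 7), and r was 0.70 without the 2 libraries farthest from the median of Fos. In cortex Fos correlated with Fosb at r = 0.72 (rho = 0.76, exact permutation p = 0.0415 and 0.0368, n = 8; 0.73 without the 2 farthest) and with Egr3 at r = 0.72 (rho = 0.71, exact permutation p = 0.0446 and 0.0576; 0.82 without them). Adjusted over the 27 relations the smallest p was 0.334 for r and 0.331 for rho, so 0 passed.

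The same mice gave several regions, so it could be asked whether a mouse high in 1 region was high in another. Between hippocampus and cortex (7 mice) 8 of 10 members had a positive r, with a median of 0.33, where over all genes the median was 0.12 and 59.8% were positive. Ier2 had r = 0.92 (rho = 0.82, exact permutation p = 0.00238 and 0.0341, adjusted over 30 relations 0.0357 and 0.205; 0.96 without the 2 mice farthest from the median). Arc had r = 0.90 (rho = 0.86, exact permutation p = 0.00694 and 0.0238, adjusted 0.067 and 0.179; 0.81 without them) and Fos r = 0.89 (rho = 0.89, exact permutation p = 0.00893 and 0.0123, adjusted 0.067 and 0.179; 0.94 without them). By mouse, Arc was highest in CD m190 in both regions, at 113 and 495 cpm, and CD m118 was next in both, at 102 and 344 cpm. Within either genotype there were at most 4 mice, too few for a value of its own.

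Hippocampus and cerebellum (6 mice) had a median r of 0.13 and cortex and cerebellum (7 mice) 0.04, against 0.03 and -0.03 over all genes. A positive r was found for 7 and 5 of the 10 members, against 51.9% and 47.4% of all genes. Egr4 had the lowest r of cortex and cerebellum, -0.91 (rho = -0.93, exact permutation p = 0.00238 and 0.00675, adjusted 0.0357 and 0.179; -0.89 without the 2 farthest). Its cerebellar values covered only 1.83 to 2.59 cpm, or 9 to 15 counts.

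The spread between libraries of the same genotype and region was set against the 200 genes of nearest mean level. In cortex 5 of the 10 members lay above the 90th percentile of spread: Arc at the 100th, Fosb at 98.5, Junb at 96.5, Egr3 at 95.5 and Npas4 at 93.0. The SD of Arc within genotype was 0.49 in log2, against a median of 0.16 for genes of like level, and its coefficient of variation over the 8 cortices was 36.0% where counting alone gives 2.46%. In hippocampus 1 member lay above the 90th percentile, Egr1 at 91.0, and Fos varied by 21.8% where counting gives 21.3%. In cerebellum 2 did, Egr1 at 98.5 and Nr4a1 at 96.0; WT m244 had 24.3 cpm of Egr1 where the other WT cerebella had 9.66 to 13.2 cpm.

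These counts of 1 and 2 turn on single libraries: without CD hippocampus m118 or m242 the hippocampal count was 0, without CD hippocampus m190 it was 2, and without WT cerebellum m162 or m244 or CD cerebellum m190 the cerebellar count was 1.

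**Figure D5:**
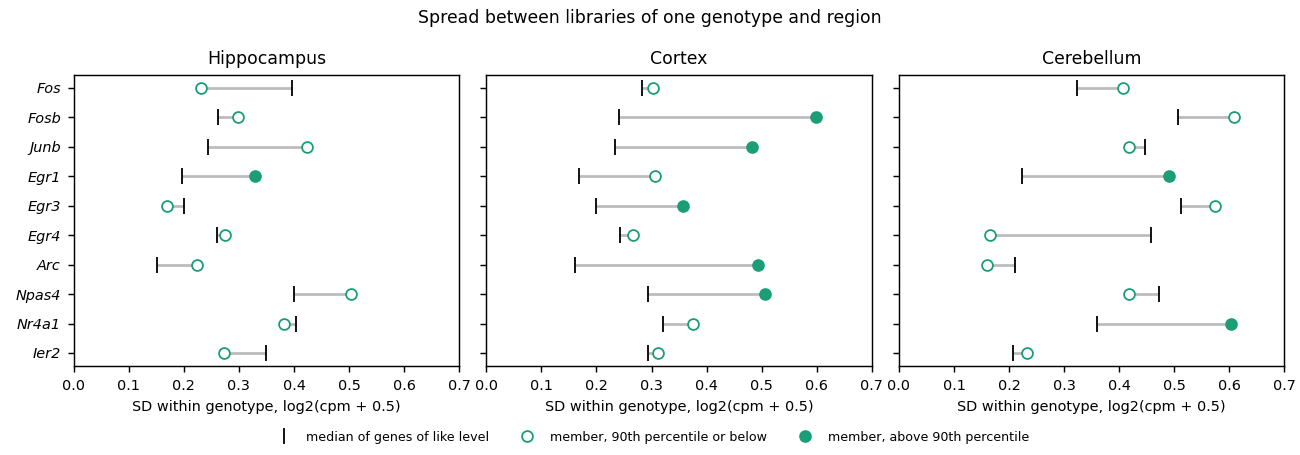
SD between libraries of the same genotype and region in log2(cpm + 0.5) (horizontal axis) for each gene (circle), beside the median SD of the 200 genes of nearest mean level (bar); filled circles lie above the 90th percentile of those genes. In cortex 5 circles are filled and all 10 lie to the right of their bars.

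The genes outside the list whose pattern was most like theirs were ranked by the correlation, over the 22 libraries with the 6 group means removed, with the mean deviation of the members. The first 10 of 11127 were Nefl (0.84), which encodes neurofilament light chain, the RNA-editing gene Adar (0.83), Bdnf (0.80), which encodes a growth factor of neurons, then Rabggtb, Acsl3, Chgb, Npy2r, Dnm2, Gpkow and Tfip11, down to 0.74, and 22 genes were above 0.7. Nefl is also in the list of neuronal markers and Bdnf in that of late response genes. Npy2r had r = -0.05 in hippocampus, where it was at 71.9 cpm, and only 2.41 cpm in cortex and 0.774 cpm in cerebellum. Tfip11 had r = 0.12 in hippocampus, and the others from 0.43 (Bdnf) to 0.89 (Gpkow). In cortex the 10 ran from 0.76 (Acsl3) to 0.90 (Rabggtb), and in cerebellum from 0.49 (Chgb) to 0.98 (Acsl3). The mean deviation of the members also covers the cerebellum, where no joint pattern of the members was seen. These are descriptions over libraries that share mice.

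The rest of the early response was counted from 4 lists. Of 17 other immediate early transcription factors found, 12 were tested between cortex and hippocampus, 2 rose in cortex (Ier3 and Ier5) and 2 fell (Jun and Nr4a3), with a median log2 fold change of 0.49. Of all genes tested 4.38% were higher and 4.03% lower in cortex past the thresholds. Jun, the usual partner of Fos, was thus 1.67 lower in cortex in log2 (SE 0.15) where Fos was 2.02 higher, and Ier5 was 1.77 higher. Per1, a clock gene that also responds to CREB, was 0.65 higher. In cerebellum against hippocampus 4 of these 12 fell (Fosl2, Nr4a2, Nr4a3 and Klf10) and 1 rose (Ier3), where 13% and 9.76% of all genes did.

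Of 11 upstream factors tested, 2 rose in cortex against hippocampus, the activity-regulated factor gene Mef2c by 2.75 and the kinase gene Camk4 by 1.09 in log2, and 0 fell, against 4.38% and 4.03% of all genes. In cerebellum against hippocampus 4 fell, Srf, Mrtfa, Mrtfb and Mef2c, and Camk4 rose by 2.41, against 13% and 9.76% of all genes. Mrtfb, a coactivator of SRF, differed by -1.86 there and by 0.06 (FDR = 0.571) between cortex and hippocampus.

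Of 12 feedback inhibitors and other effectors tested, 4 rose in cortex against hippocampus (Dusp1, Dusp14, Trib1 and Homer1) and 0 fell, against 4.38% and 4.03% of all genes. Homer1, a synaptic scaffold gene with an early short form that these counts do not separate, was 1.22 higher, the phosphatase gene Dusp14 was 1.65 higher, and Gadd45g differed by -0.70. Of 10 late response genes tested, 3 rose (Nptx2, Pcsk1 and Cdkn1a) and 0 fell, against the same shares. Vgf, a neuropeptide precursor gene, was 0.80 higher in cortex, Nptx1 differed by -0.98, and Sst, which marks a class of interneurons, by -0.03 (FDR = 0.875).

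Between CD and WT 0 genes of the 4 lists passed in any region. In hippocampus 8 of 11 other transcription factors, 5 of 11 upstream factors, 5 of 11 effectors and 6 of 10 late genes had a log2 fold change above 0, in cortex 8 of 12, 7 of 11, 7 of 12 and 8 of 10, and in cerebellum 3 of 8, 7 of 11, 2 of 11 and 3 of 9, against 48.7%, 48.6% and 49.5% of all genes in the 3 regions. Without CD m118 the hippocampal counts were 7 of 10, 4 of 11, 6 of 11 and 5 of 10, with 0 past the thresholds. Their median log2 fold changes lay between -0.13 and 0.09 over the 3 regions. The genes with the highest levels in each list differed little: in hippocampus Jun by -0.14, Mef2c by -0.05, Homer1 by 0.10 and Sst by 0.05, and in cortex by -0.01, 0.05, 0.01 and 0.08.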

How the data were processed

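Hippocampus, cortex and cerebellum of 8 mice were profiled in 22 libraries. Per the labels and the study's methods, the authors made 3′ libraries by the CelSeq2 protocol with unique molecular identifiers, aligned reads to mm10 with STAR, and deposited raw counts per RefSeq transcript made with ESAT; tool versions are not given in the sources used here. Of 85964 transcripts, 69288 (80.6%) matched a gene of RefSeq's GRCm38.p6 annotation by accession, and the transcript with the highest total stood for each of 23037 genes. The members and lists were chosen with earlier results of these data known; values are given for the 10 members, the 3 genes of highest mean cpm in each list and the 10 of most like pattern. List genes past the thresholds between regions were named after their values were seen, and the curated-transcript alternative, the pair counts without each library and the added hippocampal fits without CD m118 were chosen after seeing the data.

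CD was compared with WT in each region, and regions over all libraries as 6 group means, with edgeR 4.0.16 (quasi-likelihood test, TMM) in R 4.3.3, after a filter of 5 cpm in at least 2 libraries (13.8 to 44.3 counts). The 3 regions together used limma 3.58.1 (voom, mouse as random block). Standard errors and 95% intervals come from the F statistic or the moderated fit. Single genes used exact permutations (scipy 1.17.1), which cover the spread between mice. The limit of 3 counts for a 0 covers counting error only. Libraries of the same mouse are paired by the mouse number in the labels; across genes their deviations correlated by 0.086, 0.049 and -0.0043 on average. The fits were checked on simulated counts. Alternatives were DESeq2 1.42.0 and its size factors, other filters, summed transcripts, the replicate block and leaving out each library.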

Additional observations from a re-analysis of the deposited data

Results flagged for a closer look

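Of 40 sets of 4 libraries checked (10 genes in the groups of CD hippocampus, WT and CD cortex and WT cerebellum), 1 held a library whose gap to its nearest neighbour took up more of the group's range than Dixon's 95% critical value for 4 samples allows. It was Nr4a1 in CD hippocampus m242, at 2.82 cpm where the next lowest CD hippocampus had 3.77 cpm, a gap of 0.833 of the range. Chance alone gives such a value in about 1 of 20 groups.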

How the results depend on the processing

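The count of members past the thresholds between CD and WT was 0 in each region under each alternative run. Between regions, leaving out each library gave 7 to 7 (cortex against hippocampus), 6 to 7 (cerebellum against hippocampus) and 8 to 9 (cerebellum against cortex), and the replicate block gave 7, 7 and 8. With the curated transcripts of Nr4a1 and Npas4, chosen after seeing the data, the counts were 6, 8 and 8. In the main fit 4.38% of all genes tested were higher in cortex than in hippocampus past the thresholds. In cerebellum 13% were lower and 9.76% higher than in hippocampus, and 12.9% were lower than in cortex. An FDR below 0.05 with no fold limit gave 10, 9 and 10, but large parts of all genes pass that limit, so these counts say little about the members. In edgeR's ranking by p over 11137 genes, Npas4 passed it at rank 6672 in cerebellum against hippocampus. Junb passed it at rank 3180 in cortex against hippocampus, and Ier2 at rank 4650 in cerebellum against cortex. At least 3180, 6672 and 4650 of the 11137 genes thus pass it in the 3 comparisons. The replicate block took Nr4a1 to -0.96 in cerebellum against cortex and changed no other call. In the fit of the 3 regions together, edgeR without the block in place of limma-voom moved Egr3 from -0.13 to 0.025. That alternative changed the tool and the block at once, so the shift cannot be assigned to either. The count of members with a high spread in hippocampus was 2 with 2 cpm added before the logarithm, and 0 to 2 (hippocampus), 4 to 6 (cortex) and 1 to 2 (cerebellum) without each library. Among the differences that did not pass, Egr4 between CD and WT in hippocampus was 0.0023 with no filter and 0.0045 with summed transcripts, and summed transcripts brought Nr4a1 in cerebellum against hippocampus to -0.020. Leaving out each library, the log2 fold changes that changed sign ranged as follows: in hippocampus Egr1 from -0.26 to 0.022 and Egr4 from -0.17 to 0.20; in cortex Fosb from -0.38 to 0.42, Egr1 from -0.14 to 0.14, Npas4 from -0.066 to 0.31, Nr4a1 from -0.21 to 0.20 and Ier2 from -0.18 to 0.12; in cerebellum Fos from -0.034 to 0.50 and Egr1 from -0.26 to 0.29; over the 3 regions Fosb from -0.064 to 0.44, Egr1 from -0.12 to 0.043, Egr3 from -0.36 to 0.15, Egr4 from -0.021 to 0.094, Nr4a1 from -0.21 to 0.27 and Ier2 from -0.059 to 0.16. The cause was not tested. Depth limits the low genes: Fos, Npas4 and Nr4a1 in hippocampus rest on 9 to 57 counts per library, and Egr3 in cerebellum on 0 to 6.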
